A study of Arabidopsis thaliana with 12 samples.

Results

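The gibberellin signalling core of Arabidopsis thaliana was followed through 9 genes, chosen by their AGI locus codes: the receptor genes GID1A (AT3G05120), GID1B (AT3G63010) and GID1C (AT5G27320), the DELLA repressor genes GAI (AT1G14920), RGA (AT2G01570), RGL1 (AT1G66350), RGL2 (AT3G03450) and RGL3 (AT5G17490), and the F-box gene SLY1 (AT4G24210). All 9 were among the 27588 genes of the deposited table, and all 9 were among the 21235 genes that passed the filter on low counts. The study sequenced messenger RNA from whole seedlings of 4 genotypes, with 3 libraries per genotype and 12 in all, and the labels give the ecotype of every group as Columbia 0. The groups were the wild type Col-0, a cfh1 mutant (allele cfh1-1 in the series' design text), the line labelled CFH1 decoy, and a line with PIF3 over-expression, whose titles call it a pif3 mutant while its genotype and description fields say over-expression. All seedlings spent 7 days under 12 h of light alternating with 12 h of darkness, then moved to constant red light, and were harvested on day 12 at zeitgeber time 1. The labels do not name the promoters of the decoy and PIF3 transgenes, do not say how many independent lines were used, and do not say whether replicates were separate cultures, so a p-value here reflects only how much these libraries vary, which may be technical.

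Gibberellin is a growth hormone that acts by removing repressors. GID1 proteins are its soluble receptors in the nucleus and cytoplasm. A GID1 protein that holds the hormone binds the amino-terminal part of a DELLA protein, and SLY1, the F-box subunit of an SCF ubiquitin ligase, then marks the DELLA protein for destruction by the proteasome. DELLA proteins bind PIF3 and other transcription factors and keep them off DNA, which links the hormone to light-dependent growth of the hypocotyl. They also raise transcripts of gibberellin synthesis enzymes and of receptors, a feedback that is well known in this species. DELLA abundance is set largely by protein breakdown, which RNA libraries do not measure, and GID1 transcripts are known to be under control of the circadian clock. With 1 collection time, a changed level cannot be told apart from a shifted daily cycle in any line. In whole seedlings, a changed number of cells that express a gene cannot be told apart from a changed amount of RNA per cell.

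The DELLA family takes its name from a short motif near the start of the protein, in the part that the receptor grips. The coding DNA at that motif is shown for the 5 genes. In the RefSeq TAIR10.1 genome the motif begins at codon 44 of RGA and RGL2, codon 28 of GAI, codon 32 of RGL1 and codon 34 of RGL3. Each line gives 51 bases of coding strand, 5′ to 3′, with the 15 bases of the motif in capitals.
GAI: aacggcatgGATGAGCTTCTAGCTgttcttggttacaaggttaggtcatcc
RGA: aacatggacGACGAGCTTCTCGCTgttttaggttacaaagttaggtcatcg
RGL1: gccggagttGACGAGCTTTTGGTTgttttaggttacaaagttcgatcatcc
RGL2: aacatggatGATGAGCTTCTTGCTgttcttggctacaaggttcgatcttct
RGL3: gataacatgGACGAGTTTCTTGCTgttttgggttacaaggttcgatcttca
These lie at chr1:5149486-5149536 (plus strand), chr2:257174-257224 (minus), chr1:24748411-24748461 (plus), chr3:821109-821159 (minus) and chr5:5765747-5765797 (minus). Against RGA, with positions counted from 1 at the first capital, GAI differs in the motif by C3T and C12A, RGL1 by C10T, C12G and C14T, RGL2 by C3T and C12T, and RGL3 by C7T and C12T. By the standard genetic code, C14T in RGL1 and C7T in RGL3 change an amino acid of the motif, and the other changes do not. Over the whole 51 bases, RGL2 differs from RGA at 11 bases, GAI at 12, RGL1 at 13 and RGL3 at 15.

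The gene models and the likeness between paralogs bear on which reads could be confused. All 5 DELLA genes and SLY1 have 1 exon and no intron, and each GID1 gene has 2 exons. RGA lies at chr2:255247-257568 on the minus strand, GAI at chr1:5148982-5151415 on the plus strand, GID1A at chr3:1430363-1432844 and SLY1 at chr4:12563279-12564482, both on the plus strand. Coding DNA was most alike between GID1A and GID1C, at 83.8% of aligned bases, and between GAI and RGA, at 81.5%. The longest run of identical exonic bases was 35 between GID1A and GID1C and 30 between GAI and RGA, and it was 12 to 26 for the other pairs within a family. The step that made the counts is not given in the sources used here. Reads that fall wholly within such runs could be shared between paralogs, which was not tested.

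Total counts ran from 21914548 in decoy replicate 1 to 34345371 in decoy replicate 2, and the 9 genes together took 0.0231% to 0.034% of them. PIF3 checked the over-expression label: it stood at 348 to 363 CPM in those libraries and at 20.9 to 43.3 CPM in the other 9. Leaf and root markers were present in every library, and flower markers summed to at most 1.16 CPM. The 3 leaf markers (RBCS1A, LHCB1.3, LHCB2.2) summed to 23849 to 26544 CPM in Col-0, 23954 to 26254 in cfh1, 36301 to 52472 in decoy libraries and 13249 to 20337 with PIF3 over-expression. The 4 root markers (PYK10, NRT2.1, EXPA7, COBL9) summed to 2979 to 4093, 3231 to 4144, 5082 to 6777 and 3421 to 4400 CPM in the same order, nearly all of it from PYK10. The root hair genes EXPA7 and COBL9 did not follow that sum. EXPA7 stood at 12.1 to 14.4 CPM in Col-0, 1.92 to 7.18 in decoy libraries and 18.8 to 27.4 with PIF3 over-expression, and COBL9 at 8.77 to 11.3, 3.66 to 14 and 12.9 to 21 CPM. The 4 seed markers summed to 2.42 to 7.42 CPM with PIF3 over-expression and to at most 2.47 CPM in the other libraries, and the storage protein gene SESA1 was at 0 in Col-0, cfh1 and the decoy. Of the 4504 genes called lower in the decoy, 211 were nearly silent there (at most 3 counts summed over the group). The same held for 0 of the 12 genes lower in cfh1 and 4 of the 1554 lower with PIF3 over-expression. The labels do not say how each line was made, so an effect of the transgene or mutation cannot be told apart from another difference of that line.

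In Col-0, RGA was the most abundant of the family per length of transcript. CPM, counts relative to TMM-adjusted library size, were divided by the kilobases of annotated exon, because levels of different genes can be compared only per length. On that scale RGA stood at 38.4 ± 2.27 CPM per kb (SD, n = 3), GAI at 20.4 ± 1.61, RGL1 at 6.52 ± 0.491, RGL2 at 2.82 ± 0.437 and RGL3 at 1.16 ± 0.111. The ranges of these 5 genes did not overlap one another in Col-0. RGA and GAI, the main DELLA repressors of stem growth, thus held 55.5% ± 0.156 and 29.4% ± 0.932 of the summed DELLA level. SLY1 stood at 16.5 ± 0.35 CPM per kb, GID1A at 12.3 ± 0.652, GID1C at 7.95 ± 1.04 and GID1B at 6.83 ± 0.653. The ranges of GID1C and GID1B overlapped. RGL3, with 82, 90 and 83 counts in the Col-0 libraries, was the member with the fewest counts, and RGA had 2648 to 3254 there.

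**Figure D1:**
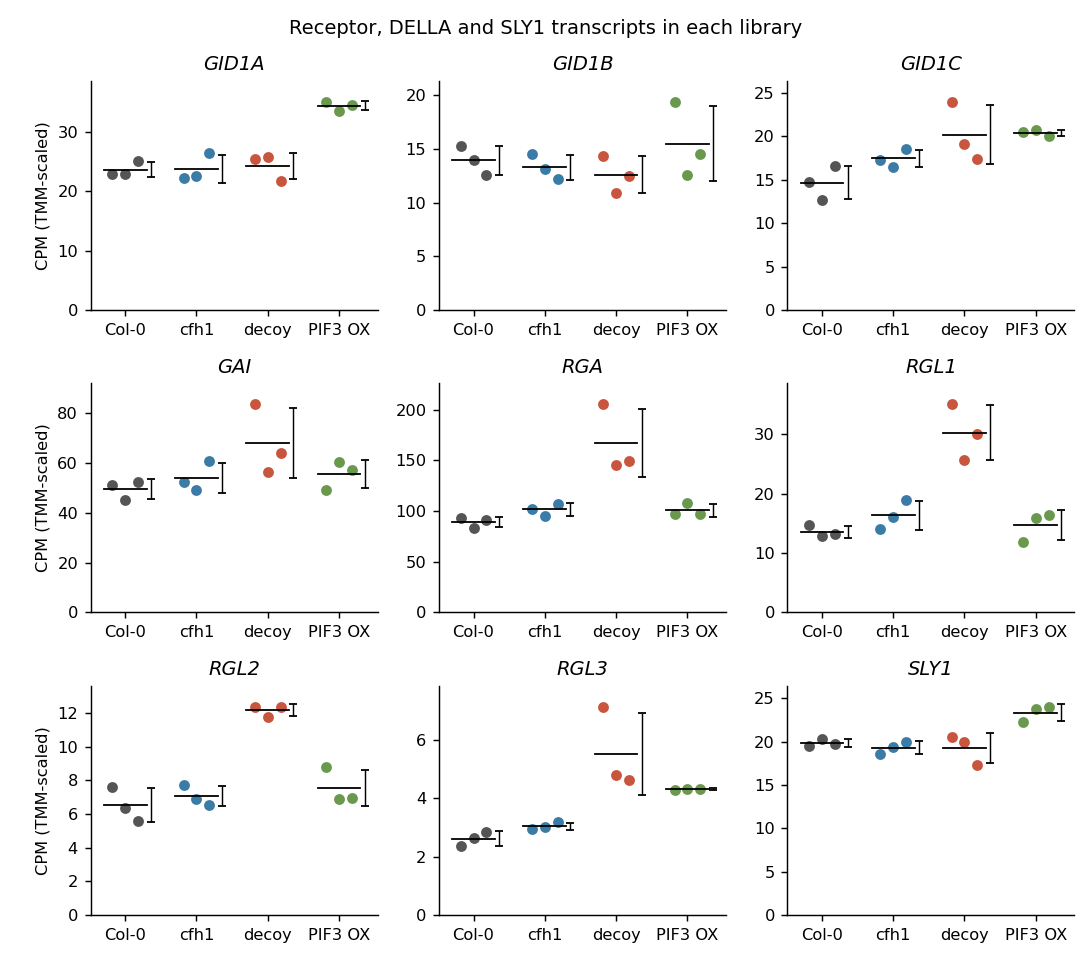
Level of each of the 9 genes in every library, as TMM-scaled CPM on a linear axis from 0. Points are libraries, short lines the mean and bars the SD of 3 libraries of Col-0, cfh1, the CFH1 decoy line and PIF3 over-expression (PIF3 OX). RGA, RGL1, RGL2 and RGL3 were higher in every decoy library than in any other library. GID1A and SLY1 were higher in every PIF3 over-expression library than in any other library.

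In the line labelled CFH1 decoy, whose construct the labels do not describe, all 5 DELLA genes and the receptor gene GID1C rose. Of the 9 genes, 6 were higher and 0 lower than in Col-0 by edgeR's quasi-likelihood test (Benjamini-Hochberg adjusted p under 0.05), and DESeq2 gave the same counts. The calls of GAI and GID1C were lost under some alternatives, given below. Of all 21235 genes tested in this comparison, 19.6% were higher and 21.2% lower. The median log2 fold change was 0.46 over the 9 genes and -0.00 over all genes tested. The groups did not overlap for the same 6 genes, each above Col-0, as for 25% of all genes. The leaf sum and the root markers PYK10 and NRT2.1 were also higher in the decoy without overlap, while EXPA7 was lower and COBL9 overlapped Col-0, and their part in these differences was not tested.

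RGA, a central repressor of growth, had 93.4, 83.3 and 90.9 CPM in the Col-0 libraries, 102, 95.4 and 107 in cfh1, 205, 146 and 149 in decoy libraries and 96.9, 108 and 97.1 with PIF3 over-expression. Every decoy library was above the other 9. Its level in the decoy was 1.87-fold that of Col-0 (log2 fold change 0.90, SE 0.132, adjusted p = 0.000238 by edgeR). RGA was also higher in the decoy than in cfh1 (log2 fold change of cfh1 against the decoy -0.71, adjusted p = 0.00147) and than with PIF3 over-expression (-0.73, adjusted p = 0.000763). The other 3 groups did not pass against one another.

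RGL1, a DELLA gene with a part in flower development, had 14.7, 12.8 and 13.2 CPM in Col-0, 14.1, 16.1 and 18.9 in cfh1, 35, 25.7 and 30.1 in decoy libraries and 11.9, 15.8 and 16.5 with PIF3 over-expression. The decoy libraries again lay above all others, and the other 3 groups overlapped. The level was 2.23-fold that of Col-0 (log2 fold change 1.16, SE 0.16, edgeR adjusted p = 0.000157), the largest log2 difference among the 9 genes. Against the decoy, log2 fold changes were -0.89 for cfh1 (edgeR adjusted p = 0.0012) and -1.04 for PIF3 over-expression (0.000235).

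RGL2, the DELLA gene best known for holding back seed germination, had 7.61, 6.36 and 5.6 CPM in Col-0, 7.72, 6.92 and 6.56 in cfh1, 12.4, 11.8 and 12.4 in decoy libraries and 8.77, 6.92 and 6.94 with PIF3 over-expression. The decoy libraries lay close together and above all others. The difference from Col-0 was 1.86-fold (log2 fold change 0.90, SE 0.15, edgeR adjusted p = 0.000613). Against the decoy, log2 fold changes were -0.78 for cfh1 (edgeR adjusted p = 0.00186) and -0.69 for PIF3 over-expression (0.00255).

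RGL3, which acts with jasmonate signalling, had 2.35, 2.64 and 2.85 CPM in Col-0, 2.93, 3.03 and 3.17 in cfh1, 7.13, 4.81 and 4.61 in decoy libraries and 4.29, 4.32 and 4.33 with PIF3 over-expression. The decoy and PIF3 over-expression libraries all lay above all Col-0 and cfh1 libraries. The lowest decoy value, 4.61, was also above the highest with PIF3 over-expression, 4.33. The highest value was that of decoy replicate 1, the library with the fewest counts. The decoy stood 2.1-fold above Col-0 (log2 fold change 1.07, SE 0.192, edgeR adjusted p = 0.00101). PIF3 over-expression and the decoy did not pass against each other, with a log2 difference of -0.34 and a 95% interval of -0.75 to 0.06.

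GAI, the closest relative of RGA, had 51.2, 45.1 and 52.4 CPM in Col-0, 52.4, 49.2 and 60.9 in cfh1, 83.6, 56.2 and 64 in decoy libraries and 49.4, 60.4 and 57.1 with PIF3 over-expression. The decoy lay above Col-0 but overlapped the other lines. Its log2 fold change from Col-0 was 0.45 (SE 0.146, edgeR adjusted p = 0.0255), a 1.37-fold difference. GID1C had 14.7, 12.7 and 16.6 CPM in Col-0, 17.3, 16.5 and 18.5 in cfh1 and 24, 19.1 and 17.4 in the decoy, with a log2 fold change of 0.46 in the decoy (SE 0.133, edgeR adjusted p = 0.0161). These smaller differences were less stable than those of the other DELLA genes. GAI lost its call when Col-0 replicate 1 (0.48), Col-0 replicate 2 (0.39) or decoy replicate 1 (0.27) was left out, with the compared pair of genotypes alone (0.43) or with library totals in place of TMM factors (0.18). GID1C lost its call when Col-0 replicate 2 (0.36) or decoy replicate 1 (0.31) was left out, with the pair alone (0.44) or with library totals (0.20). RGA, RGL1, RGL2 and RGL3 passed under each of the 13 alternatives run for this comparison. With library totals alone, which moved the median of all genes by -0.25, they stood at 0.63, 0.89, 0.64 and 0.80.

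GID1A, GID1B and SLY1 did not pass in the decoy. GID1A had 25.5, 25.7 and 21.8 CPM in the decoy libraries against 22.9, 22.9 and 25 in Col-0 (log2 fold change 0.04, 95% interval -0.18 to 0.27). GID1B, the receptor with the tightest hold on gibberellin, had 14.4, 10.9 and 12.5 against 15.3, 13.9 and 12.6 (-0.15, interval -0.51 to 0.21). SLY1 had 20.5, 20 and 17.3 CPM against 19.5, 20.3 and 19.7 (-0.04, interval -0.25 to 0.17). The groups overlapped for all 3 genes. The directions of the GID1A and SLY1 values depended on the setting. With library totals GID1A stood at -0.21, and SLY1 at -0.30 then passed (edgeR adjusted p = 0.0489).

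**Figure D2:**
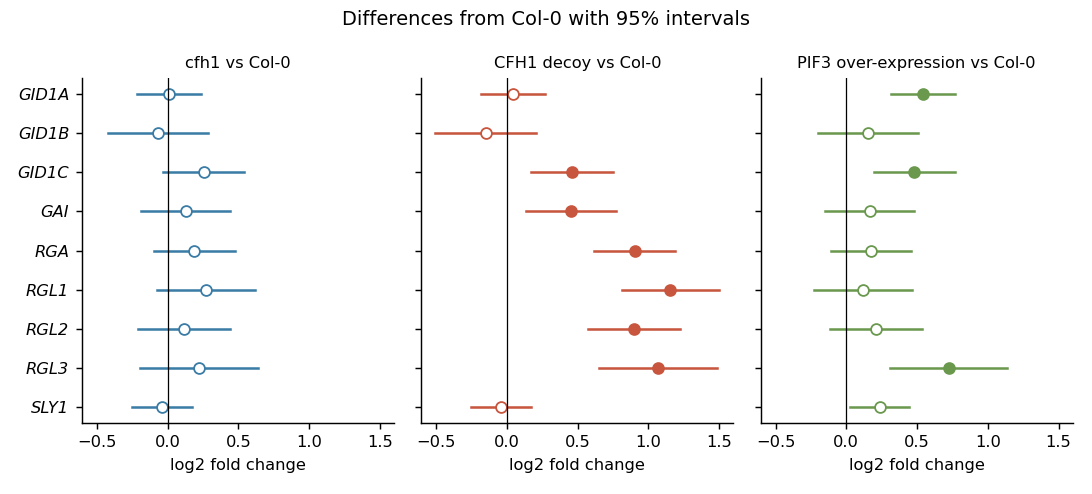
Log2 fold changes of the 9 genes against Col-0 from the edgeR fit of all 12 libraries, for cfh1, the CFH1 decoy line and PIF3 over-expression. Lines are 95% intervals, filled points passed an adjusted p of 0.05 and open points did not. In the decoy panel the 5 DELLA genes and GID1C are filled, and in the PIF3 panel GID1A, GID1C and RGL3 are.

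Over-expression of PIF3, a transcription factor that DELLA proteins bind, asks what more PIF3 changes under red light, and there the receptor genes GID1A and GID1C and the DELLA gene RGL3 rose. Of the 9 genes, 3 were higher and 0 lower than in Col-0 by edgeR, and the same counts came from DESeq2. Only GID1A kept its call whichever library of the comparison was left out. Of all genes tested, 6% were higher and 7.32% lower. The median log2 fold change was 0.21 over the 9 genes and -0.00 over all genes tested. All PIF3 over-expression libraries lay above all Col-0 libraries for 5 genes (GID1A, GID1C, RGA, RGL3 and SLY1), as for 19.9% of all genes. The summed leaf markers were lower in these libraries than in Col-0, and the summed seed markers, EXPA7 and COBL9 were higher, each without overlap, and their part in these differences was not tested.

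GID1A had 35, 33.5 and 34.5 CPM with PIF3 over-expression, against 22.9, 22.9 and 25 in Col-0 and 22.3, 22.5 and 26.4 in cfh1. The 3 libraries lay close together and above the other 9. The level was 1.46-fold that of Col-0 (log2 fold change 0.54, SE 0.103, edgeR adjusted p = 0.00659). It was also higher than in the decoy (0.50, edgeR adjusted p = 0.00198) and in cfh1 (0.53, 0.0074), while Col-0, cfh1 and the decoy did not pass against one another. GID1A passed against Col-0 under each of the 14 alternatives run, with log2 fold changes of 0.52 to 0.63.

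GID1C had 20.5, 20.8 and 20 CPM with PIF3 over-expression, above the 12.7 to 16.6 CPM of Col-0 (log2 fold change 0.48, SE 0.133, edgeR adjusted p = 0.031). The order of its levels was Col-0, cfh1, decoy and PIF3 over-expression, and no neighbours in that order passed against each other. RGL3 stood 1.65-fold above Col-0 (log2 fold change 0.72, SE 0.191, edgeR adjusted p = 0.0256), with about the same CPM in all 3 libraries. The calls for GID1C and RGL3 were kept when Col-0 replicate 3 was left out (0.57 and 0.79) and lost when any other library of the comparison was. Without Col-0 replicate 1 or 2 or PIF3 over-expression replicate 1, 2 or 3, GID1C did not pass (0.48, 0.39, 0.48, 0.47 and 0.49 in that order) and neither did RGL3 (0.65, 0.73, 0.73, 0.72 and 0.72).

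SLY1 had 22.3, 23.8 and 24 CPM with PIF3 over-expression, above every other library, whose highest value was 20.5. The difference from Col-0 did not pass (log2 fold change 0.24, 95% interval 0.03 to 0.44, edgeR adjusted p = 0.133), although it did in a fit without the decoy line (0.25, 0.0482). Against the decoy it passed (0.28, edgeR adjusted p = 0.0344), and that call was lost with the pair alone (0.27) and with replicate number as a block (0.28, 0.0579). It was also lost without decoy replicate 3 (0.21) or PIF3 over-expression replicate 2 (0.27) or 3 (0.26). GID1B spread widely with PIF3 over-expression, at 19.4, 12.6 and 14.5 CPM, and overlapped Col-0 (log2 fold change 0.15, interval -0.20 to 0.50). Without PIF3 over-expression replicate 1 its value was -0.040. RGA (0.17), GAI (0.17), RGL1 (0.12) and RGL2 (0.21) did not pass, and the upper ends of their 95% log2 intervals were 0.46, 0.48, 0.46 and 0.53.

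**Figure D3:**
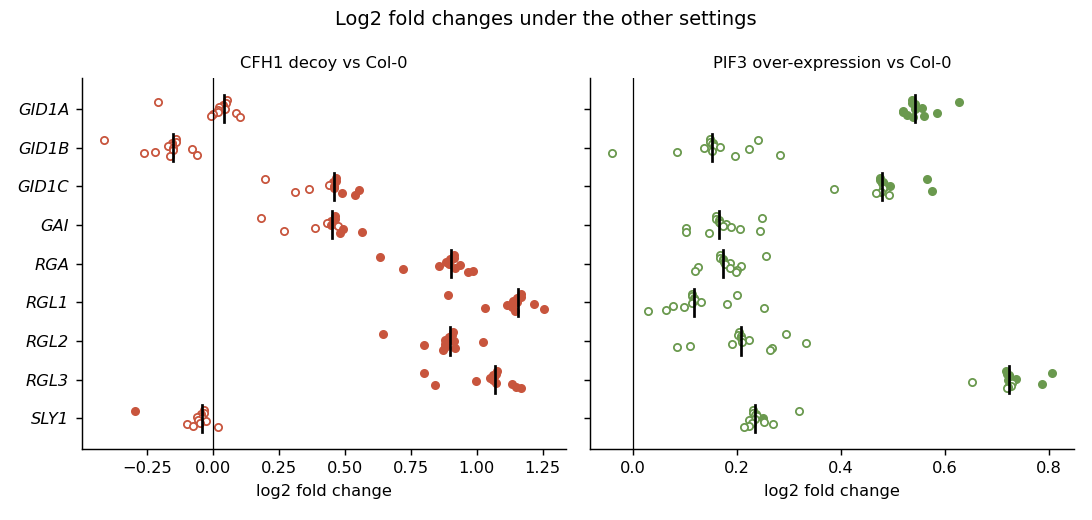
Log2 fold changes of the 9 genes against Col-0 under each other setting, for the CFH1 decoy line (left) and PIF3 over-expression (right), on separate horizontal axes. Each point is 1 alternative (other scaling, DESeq2, other filters, fewer groups, the replicate block or 1 library left out), filled where it passed an adjusted p of 0.05, and the black bar is the value of the fit of all 12 libraries with TMM factors. All points of RGA, RGL1, RGL2 and RGL3 in the decoy and of GID1A with PIF3 over-expression are filled.

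In the cfh1 mutant, none of the 9 genes passed; the CFH1 transcript itself was not checked here. By edgeR 0 of 9 were higher and 0 lower, 0 had an unadjusted p under 0.05, and DESeq2 called 0. Of all genes tested, 0.0141% were higher and 0.0565% lower. Values ran from -0.07 for GID1B to 0.27 for RGL1 (edgeR log2 fold changes), with a median of 0.13 against 0.00 over all genes. The 95% intervals of the 9 log2 values lay between -0.42 (GID1B) and 0.64 (RGL3). RGA and RGL3 were above Col-0 in all 3 libraries without overlap, as were 7.88% of all genes. The direction of GID1A in cfh1 was not stable: it stood at 0.01 and turned to -0.011 with library totals, -0.012 without Col-0 replicate 1 or 2, and -0.075 without cfh1 replicate 3.

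Between the lines, each comparison uses libraries that also served above. In cfh1 against the decoy, RGA, RGL1, RGL2 and RGL3 were lower and 0 of 9 higher, where 15% of all genes were lower and 18.2% higher. With PIF3 over-expression against the decoy, GID1A and SLY1 were higher and RGA, RGL1 and RGL2 lower, where 22.7% of all genes were higher and 20.5% lower. GAI did not pass in either (log2 fold changes -0.33 and -0.29), but without decoy replicate 2 it passed in both (-0.45 and -0.41). With library totals in place of TMM factors, RGL2 did not pass between PIF3 over-expression and the decoy (-0.35), while GID1B (0.65) and GID1C (0.37) did. In PIF3 over-expression against cfh1, GID1A alone of the 9 was higher and 0 were lower, where 5.7% of all genes were higher and 7.18% lower. RGL3 (0.50) and SLY1 (0.27) did not pass there, but both passed without the decoy line (0.52 and 0.29) and with library totals (0.61 and 0.38).

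Summed by family, DELLA transcripts were higher in the decoy and receptor transcripts higher with PIF3 over-expression than in Col-0. These sums of CPM per kb, and the ratio between them, which no library scaling changes, are descriptions without a test. The 5 DELLA genes summed to 72.7, 64.5 and 70.7 CPM per kb in Col-0, 76.9, 73.3 and 84.6 in cfh1, 148, 106 and 112 in decoy libraries and 73.4, 83.8 and 78.1 with PIF3 over-expression. The 3 GID1 genes summed to 27.4, 25.7 and 28.2 in Col-0, 28.1, 27.2 and 29.8 in cfh1, 33.4, 29.1 and 27 in decoy libraries and 38.9, 34.9 and 36 with PIF3 over-expression. With TMM factors, the decoy line stood out by its DELLA sum and PIF3 over-expression by its receptor sum. The DELLA sums of all cfh1 and PIF3 over-expression libraries were also above the highest Col-0 sum, 72.7, the lowest being 73.3 in cfh1 replicate 2. With library totals, the mean receptor sum moved from 29.8 to 25.8 in the decoy and from 36.6 to 40.2 with PIF3 over-expression. The mean DELLA sum with PIF3 over-expression moved from 78.4 to 86. The ratio of DELLA to receptor transcript per length was 2.56 ± 0.0829 in Col-0, 2.76 ± 0.0711 in cfh1, 4.08 ± 0.416 in decoy libraries and 2.15 ± 0.257 with PIF3 over-expression (SD, n = 3 each). All decoy libraries, at 4.44, 3.62 and 4.17, lay above the highest other value, 2.84 in cfh1 replicate 3. The cfh1 libraries, at 2.73, 2.7 and 2.84, lay above the highest Col-0 value, 2.65. All PIF3 over-expression libraries, at 1.89, 2.4 and 2.17, lay below the lowest other value, 2.5 in Col-0 replicate 3.

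**Figure D4:**
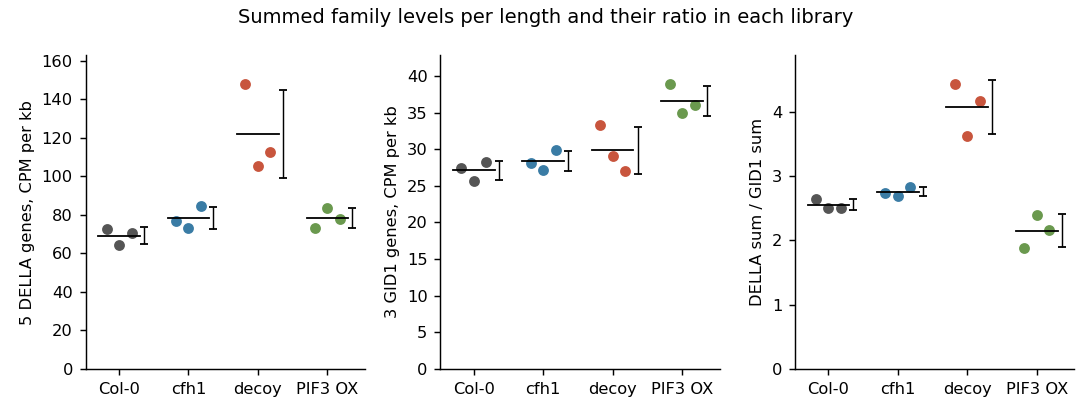
Summed level of the 5 DELLA genes (left) and of the 3 GID1 genes (middle), in TMM-scaled CPM per kb of exon, and the ratio of the sums (right), in each library of the 4 genotypes. Points are libraries, short lines the mean and bars the SD of 3 libraries. The ratio is 3.62 to 4.44 in the decoy libraries and 1.89 to 2.4 with PIF3 over-expression, against 2.5 to 2.65 in Col-0.

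The shares of the members in each sum are also given without a test. GAI held 22.8% ± 0.804 of the DELLA sum in the decoy against 29.4% ± 0.932 in Col-0, and all decoy libraries lay below all others. RGL1 held 12% ± 0.784 in the decoy against 9.41% ± 0.402, and RGA 58.8% ± 1.4 against 55.5% ± 0.156. RGL3 held 2.44% ± 0.151 with PIF3 over-expression against 1.68% ± 0.211 in Col-0. Of the receptor pool, GID1A held 49.1% ± 1.77 with PIF3 over-expression and 45.5% ± 1.63 in Col-0, and GID1C held 36.5% ± 2.13 in the decoy and 29.2% ± 2.46 in Col-0. The order of the members within each family was the same in the mean of all 4 genotypes, RGA, GAI, RGL1, RGL2, RGL3 for the DELLA genes and GID1A, GID1C, GID1B for the receptors.

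**Figure D5:**
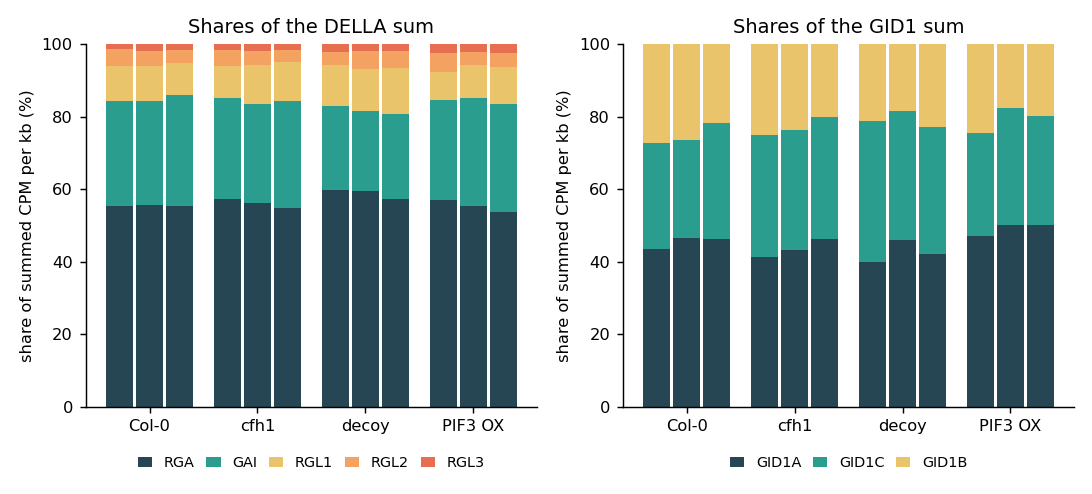
Share of each gene in the summed CPM per kb of the DELLA genes (left) and of the GID1 genes (right), in percent, with 1 bar per library and 3 bars per genotype. The GAI share is 21.9% to 23.4% in the decoy bars and 27.5% to 30.5% in all others.

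Upstream DNA of 3 members is shown, since RGL1 rose in the decoy, GAI rose there less, and GID1A rose with PIF3 over-expression. Each run is the 300 bases before the annotated gene start in TAIR10.1, 5′ to 3′ on the coding strand. It is reference sequence and was not read from these lines. Capitals mark matches, on either strand, to the motifs searched: the G-box CACGTG and the PBE-box CACATG, which PIF factors bind, the evening element AAAATATCT and the CCA1-binding site AAAAATCT of clock control, and the gibberellin response element TAACAAA. No listed motif contains another.
GID1A, chr3:1430063-1430362: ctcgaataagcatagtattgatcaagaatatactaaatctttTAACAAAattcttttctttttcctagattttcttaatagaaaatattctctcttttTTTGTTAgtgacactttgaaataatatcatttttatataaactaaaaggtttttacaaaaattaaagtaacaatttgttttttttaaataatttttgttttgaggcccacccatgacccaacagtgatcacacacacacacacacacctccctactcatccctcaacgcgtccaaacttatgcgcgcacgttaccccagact
GAI, chr1:5148682-5148981: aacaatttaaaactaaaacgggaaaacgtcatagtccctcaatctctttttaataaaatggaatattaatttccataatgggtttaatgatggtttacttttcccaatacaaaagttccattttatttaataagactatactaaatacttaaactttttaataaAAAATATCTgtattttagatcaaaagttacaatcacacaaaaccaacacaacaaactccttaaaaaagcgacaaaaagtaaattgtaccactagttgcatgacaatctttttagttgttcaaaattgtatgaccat
RGL1, chr1:24747805-24748104: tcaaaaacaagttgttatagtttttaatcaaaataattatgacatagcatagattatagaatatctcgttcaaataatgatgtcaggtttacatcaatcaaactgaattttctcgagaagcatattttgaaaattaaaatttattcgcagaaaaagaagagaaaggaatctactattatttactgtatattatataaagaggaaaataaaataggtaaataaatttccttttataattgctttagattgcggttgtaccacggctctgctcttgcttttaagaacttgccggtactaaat
RGL1 held no match to any of the 5 motifs, and the same was true of RGL2. GID1A held the gibberellin response element 2 times, starting 258 and 202 bases before the gene start, and GID1C, RGL3 and SLY1 held it 1 time each. GAI held 1 evening element, 136 bases before its start, and GID1B 1 PBE-box, 87 bases before its start. Among 27443 windows of the same length before protein-coding genes, 19.2% held the gibberellin response element, 2.79% the evening element, 13.1% the PBE-box, 7.09% the G-box and 7.94% the CCA1-binding site. No G-box lay in any of the 8 windows searched. These matches are descriptions of letters and not of binding.

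Other genes of the pathway were followed in 8 lists with 83 distinct genes, of which 75 were tested. In the decoy 20 of the 75 were higher and 11 lower, beside 19.6% and 21.2% of all genes, so no count of a list below is read as particular to it. Genes of the early steps of gibberellin synthesis rose at 3 of 5: GA1, the copalyl diphosphate synthase gene (log2 fold change 1.05), GA2, the kaurene synthase gene (0.50), and GA3, the kaurene oxidase gene (0.37), and 0 were lower. Of the 20-oxidase and 3-oxidase genes, which finish the hormone, 4 of 9 were tested, and GA20OX1 rose from 1.22 ± 0.423 to 4.88 ± 0.58 CPM (log2 fold change 1.99, edgeR adjusted p = 0.000375) while GA20OX2 fell from 1.44 ± 0.0591 to 0.545 ± 0.185 CPM (-1.39, 0.0027). GA2OX2, of gibberellin inactivation, rose (1.20), the only one of 5 tested in its list. The median log2 fold changes of these lists were 0.37, 0.12 and -0.30, against -0.00 over all genes. GA1 did not pass without any 1 of Col-0 replicates 1, 2 and 3 or decoy replicates 1 and 3 (0.78 to 1.12), with library totals (0.80), with the pair alone (1.03) or with the replicate block (1.04, adjusted p = 0.061 by edgeR). GA2 lost its call when Col-0 replicate 1 (0.45), Col-0 replicate 2 (0.52) or decoy replicate 2 (0.36) was left out, GA3 when Col-0 replicate 1 (0.33) or 2 (0.30) was, and neither passed with library totals (0.26 and 0.12). GA3 also did not pass with the pair alone (0.35).

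Genes that DELLA proteins are known to raise, other than the receptors, moved in both directions in the decoy: of 8 tested, GA20OX1 and SCL3, a GRAS-family partner of DELLA proteins (0.41), rose and GA20OX2 fell (median 0.39). Genes known to be induced by gibberellin rose at 6 of 11 and fell at 2 (median 0.46), led by the growth-promoting bHLH genes PRE5 (3.05) and PRE1 (2.06), the expansin gene EXPA8 (1.99) and GASA14 (1.71). Of the genes that modify or bind DELLA proteins, 5 of 16 rose and 5 fell (median 0.02), led by PIF4 (1.13), MGP (-0.63), BOI (-0.59) and BZR1 (0.56). Of 25 other genes of the GRAS family, to which the DELLA genes belong, 4 rose and 3 fell (median 0.26), beside 19.6% and 21.2% of all genes, led by AT1G63100 (-1.12), SCL1 (-0.73), PAT1 (0.62) and AT1G07520 (0.49). Whether the DELLA genes differ from the other GRAS genes was not tested. None of 5 SCF partners of SLY1 passed by edgeR (1 at an unadjusted p under 0.05, and 1 higher by DESeq2). SCL3 lost its call when Col-0 replicate 1 (0.36), Col-0 replicate 2 (0.41) or decoy replicate 1 (0.25) was left out, with the pair alone (0.39) or with library totals (0.15). MGP lost its call when Col-0 replicate 2 was left out (-0.42) and with the pair alone (-0.65), BZR1 with library totals (0.29), and AT1G63100 when Col-0 replicate 2 (-0.88) or decoy replicate 3 (-0.99) was left out and with the pair alone (-1.14). AT1G07520 did not pass without any 1 Col-0 library or decoy replicate 3 (0.29 to 0.53), with the pair alone (0.47) or with library totals (0.24). With library totals 0 genes of the early synthesis list and 1 each of the DELLA-raised, modifier and other GRAS lists were higher. Leaving out 1 library also moved these counts: 0 early synthesis genes rose when Col-0 replicate 1 or 2 was dropped, 2 modifiers when decoy replicate 1, Col-0 replicate 1 or Col-0 replicate 2 was dropped, and 1 to 7 other GRAS genes, fewest without Col-0 replicate 1 or 2 and most without decoy replicate 2. The gibberellin-induced genes that fell numbered 0 when replicate 2 or 3 of either group was dropped and 1 when Col-0 replicate 1 was. The DELLA-raised genes that rose numbered 4 when decoy replicate 2 was dropped, and 1 when decoy replicate 1, Col-0 replicate 1 or Col-0 replicate 2 was. The modifiers that fell numbered 3 when Col-0 replicate 3 was dropped and with the pair alone. The oxidase and DELLA-raised genes that fell numbered 2 in each list when Col-0 replicate 3 was dropped and with DESeq2. When decoy replicate 2 was dropped, 2 oxidase and 2 inactivation genes rose, and when decoy replicate 3 was, 1 gene of the SCF list did.

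With PIF3 over-expression 12 of the 75 genes were higher and 3 lower, beside 6% and 7.32% of all genes. The 12 include PIF3 itself (3.62), the over-expressed gene, whose rise belongs to the design. No count of a list below is read as particular to it. GA2 (0.82) was the only one of 5 early synthesis genes and GA20OX2 (1.16) the only one of 4 oxidase genes tested to pass, and both rose. Genes that DELLA proteins are known to raise rose at 2 of 8, GA20OX2 and XERICO (0.94), a RING-finger gene of abscisic acid accumulation, and 0 fell. Genes at lower values came near the threshold in both lists: GA3OX1, a 3-oxidase gene in both, stood at -0.71 and AT5G50915, in the DELLA-raised list, at -0.59 (edgeR adjusted p = 0.0714 and 0.0711, named after their values were seen). DESeq2 called 1 oxidase gene and 2 DELLA-raised genes lower, the pair alone and the fit without the decoy line 1 in each list, and the fit without PIF3 over-expression replicate 2 called 1 DELLA-raised gene lower. GA20OX2 thus stood at 1.16 with PIF3 over-expression and at -1.39 in the decoy, both against the same Col-0 libraries. Gibberellin-induced genes rose at 4 of 11 and fell at 2, among them the sugar transporter genes SWEET14 (2.75) and SWEET13 (1.53), PRE5 (1.71) and AT1G22690 (-1.62). Of the DELLA modifiers and partners, PIF3 itself, PIF4 (0.59) and SEC (0.52), for the enzyme that adds O-linked N-acetylglucosamine to DELLA proteins, rose and BRG2 (-0.65) fell, of 16. Of 25 other GRAS genes, AT2G37650 (0.42) and SCL14 (0.36) rose and 0 fell. No gene of the inactivation or SCF lists, with 5 tested in each, passed by edgeR. At an unadjusted p under 0.05, 1 gene of each list did, and DESeq2 called 0 in either list. The median log2 fold changes were 0.27 for early synthesis, 0.09 for the oxidases, 0.11 for DELLA-raised, 0.31 for gibberellin-induced, 0.16 for modifier, -0.01 for other GRAS, -0.05 for inactivation and 0.12 for SCF genes, against -0.00 over all genes. GA20OX2 lost its call when Col-0 replicate 1 (1.13) or PIF3 over-expression replicate 1 (1.1) was left out, PIF4 without Col-0 replicate 1 (0.51), Col-0 replicate 2 (0.56) or PIF3 over-expression replicate 3 (0.57), and SEC without any 1 Col-0 library or PIF3 over-expression replicate 1 or 3 (0.37 to 0.57). PRE5 did not pass without any 1 Col-0 library or PIF3 over-expression replicate 2 or 3 (1.29 to 2.11) or with the replicate block (1.75, adjusted p = 0.058 by edgeR). SCL14 did not pass without any 1 Col-0 library or PIF3 over-expression replicate 1 or 3 (0.27 to 0.39). AT2G37650 did not pass without any 1 Col-0 library or PIF3 over-expression replicate 2 or 3 (0.35 to 0.44) or with the block (0.42, 0.0539). With 1 library left out, 0 or 1 of the other GRAS genes and 1 to 3 of the modifiers were higher, the latter 1 without Col-0 replicate 1 or 2 or PIF3 over-expression replicate 3. The oxidases that rose numbered 0 without replicate 1 of either group, and the DELLA-raised genes that rose numbered 1. With library totals 4 other GRAS genes were higher, and without the decoy line 4 were, with 5 modifiers.

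In cfh1, 0 of the 75 tested genes of these lists passed by edgeR, beside 0.0141% of all genes higher and 0.0565% lower. An unadjusted p under 0.05 was found for 2 of the 75, and DESeq2 called 0 in each of the 8 lists. With so few genes called, the 0 is not read as particular to these lists.

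For each member that passed against Col-0, the 3 genes nearest in pattern were sought among 8216 named nuclear genes, by the root mean square difference of centred log2 CPM over the 12 libraries. This measure describes likeness in these libraries, which all share 4 genotypes. GID1A lay nearest BS14A (0.0653), PUP11 (0.0781) and RDR1 (0.0838), and GID1C nearest RBL3 (0.0748), DEG7 (0.0845) and HB-1 (0.086). GAI lay nearest AGB1 (0.08), RALF23 (0.0823) and PRA8 (0.0824), and RGA nearest RHA1B (0.0822), PRA1.B2 (0.0879) and ETT (0.0918). RGL1 lay nearest ENODL8 (0.112), TIP2 (0.143) and AIR12 (0.145), and RGL2 nearest TCP2 (0.146), SAP130a (0.151) and ASY2 (0.151). RGL3 lay nearest DFL1 (0.111), TET2 (0.121) and AOC4 (0.129), of which DFL1 stood at a log2 fold change of 0.96 in decoy libraries and 0.65 with PIF3 over-expression.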

How the data were processed

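The values are estimated counts per gene and library, as the authors deposited them, and 41.57% were not whole numbers. Tools listed in the submitters' processing notes were StringTie 2.1.2, HISAT2 2.1.0 and Trimmomatic 0.39, with TAIR10 as the build. Their roles, the counting step and strand use are not given in those notes. Counts were rounded, filtered with filterByExpr (minimum count 10) and fitted in R 4.3.3 with edgeR 4.0.16: TMM factors, 1 mean per genotype over all 12 libraries, quasi-likelihood tests of 6 comparisons, and Benjamini-Hochberg adjustment over all 21235 genes. Each SE was derived from the test, as the absolute log2 fold change divided by the square root of its F statistic. Intervals are 95%, from that SE and a t distribution. The pipeline was tested on simulated counts in which a small set of genes differed, in cfh1 alone. That setting is unlike the decoy, where 19.6% of all genes were higher and 21.2% lower, so it does not test that comparison.

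Alternatives were RLE factors, library totals, DESeq2 1.42.0, no filter, a filter of 1 CPM in 3 libraries, the compared pair alone, no decoy line, a replicate block and each library left out. Names, exon lengths and sequences came from RefSeq TAIR10.1. The table holds no coordinates, and its locus codes were matched by name. The members and lists were chosen with earlier results of these data known. Named were all members, PIF3, up to 4 called genes per list with the largest absolute log2 fold change, and pattern neighbours with a symbol and a mean log2 CPM of at least 1 (prior count 2). LHCB1.3 is CAB1 in RefSeq. The upstream window of 1 member is not reported here.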

Additional observations from a re-analysis of the deposited data

How the results depend on the processing

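Over the 9 genes and 6 comparisons, 663 of the values under alternatives kept their direction and side of the threshold, 25 lost a call, 11 gained one and 30 turned direction. The turned values, all of genes that had not passed, are log2 fold changes. Against Col-0, GID1A in cfh1 stood at -0.011 with library totals and ranged from -0.075 to 0.054 with 1 library left out, GID1A in the decoy at -0.21 and from -0.0059 to 0.10, SLY1 in the decoy from -0.097 to 0.018, and GID1B with PIF3 over-expression from -0.040 to 0.28. In cfh1 against the decoy, SLY1 stood at -0.013 with RLE factors and at -0.0095 with DESeq2, GID1A at 0.20 and GID1C at 0.037 with library totals, and with 1 library left out GID1A ranged from -0.12 to 0.012, GID1B from -0.022 to 0.18 and SLY1 from -0.067 to 0.048. In PIF3 over-expression against the decoy, GAI stood at 0.065 and RGL3 at 0.0063 with library totals, and GID1C ranged from -0.065 to 0.16. In PIF3 over-expression against cfh1, RGA stood at 0.089 with library totals and 0.0017 with the pair alone, and RGA ranged from -0.069 to 0.025, RGL2 from -0.027 to 0.16 and GAI from -0.025 to 0.13.

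Library totals shifted the median of all genes by -0.25 in the decoy against Col-0, 0.23 in cfh1 and 0.34 in PIF3 over-expression against the decoy, and 0.11 between the last 2 lines. With them, 6 genes were higher in cfh1, 1720 higher and 6929 lower in the decoy (1 of the 9 lower), 6039 higher and 1304 lower in cfh1 against the decoy, 9120 higher and 1973 lower in PIF3 over-expression against the decoy (4 of the 9 higher), and 904 lower in PIF3 over-expression against cfh1 (3 of the 9 higher). With TMM factors, 5.7% of all genes were higher in PIF3 over-expression against cfh1. DESeq2 called 7 higher and 31 lower in cfh1, and 2 of the 9 (GID1A and SLY1) higher in PIF3 over-expression against cfh1. The pair alone gave 1930 higher and 2349 lower with PIF3 over-expression, and 2522 higher and 1903 lower in cfh1 against the decoy. It gave 1 of the 9 (GID1A) higher in PIF3 over-expression against the decoy. The fit of all 12 libraries had 22.7% of all genes higher there. Without the decoy line, 5 genes were higher in cfh1, 2020 with PIF3 over-expression, and 1860 in PIF3 over-expression against cfh1 (3 of the 9 higher). With 1 library left out, PIF3 over-expression against Col-0 gave 413 to 1090 higher, 461 to 1429 lower and 1 to 3 of the 9 higher. Against cfh1 it gave 532 to 1088 higher and 367 to 1518 lower, and against the decoy 4084 to 5275 higher, with 1 to 2 of the 9 higher. In cfh1, 7 to 12 genes were lower against Col-0 and 2005 to 3736 against the decoy. The cause of these moves was not tested.

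Over 18 pairs of same-numbered libraries of different genotypes, the correlation of deviations ran from -0.36 to 0.27, and 2 were above 0.1. Over 36 pairs with different numbers it ran from -0.23 to 0.37, and 9 were above 0.1. These correlations cannot settle whether the numbers pair the samples, because the deviations are taken within groups of 3 libraries. With replicate number as a block, 1 of the 9 genes (GID1A) was higher in PIF3 over-expression against the decoy. SLY1 did not pass there (0.28, edgeR adjusted p = 0.0579). Without the block, 22.7% of all genes were higher in that comparison. Counting error was largest for RGL3, with 82 to 90 counts per Col-0 library.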
